A study of Homo sapiens with 54 samples.

Results

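CA9 and 9 other genes known for their induction by low oxygen (VEGFA, SLC2A1, NDRG1, ANKRD37, EGLN3, ADM, BNIP3, PDK1 and LDHA) were followed through RNA sequencing of 3 human colorectal cancer cell lines. These 10 genes, of 59368 in the deposited gene table, were chosen by the fall of CA9 under 5-fluorouracil (5-FU) in the libraries labelled resistant HT-29, so the values of those libraries are given as a description and with no test. 5-FU is a uracil analogue that blocks thymidylate synthesis and enters RNA and DNA. HCT-116, HT-29 and DLD-1 are established lines from colorectal tumours. Each line has libraries labelled as sensitive cells and as resistant cells. By the study's account, the resistant cells were raised from the same line over months of growth in rising amounts of the drug and kept in it. The markers of the libraries labelled resistant HT-29, given below, went against that label. For 24 h, cells of either kind were given uracil (the control) or 5-FU, each at 10 µM. Others had this 5-FU, then a change of medium and irradiation at the median lethal dose. With 3 replicates in each of 18 conditions this gave 54 libraries. The study describes the replicates as biological, and the labels do not say how they were kept apart, so p-values cover the spread between these samples. Fewer cells that express a gene and less RNA per cell cannot be told apart in such bulk libraries. None of the conditions is labelled as low oxygen. Levels are in TPM, the share of all transcripts corrected for length, and differences are log2 fold changes of estimated counts in edgeR's quasi-likelihood test. A gene was called where its Benjamini-Hochberg adjusted p over all genes was at most 0.01 and its change at least 2-fold, that is 1 on the log2 scale, and tests of a difference between responses used the adjusted p alone.

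In cells that have enough oxygen, prolyl hydroxylases mark the alpha subunits of the hypoxia-inducible factors (HIF) for destruction through the VHL protein. When oxygen falls, the alpha subunits persist, pair with ARNT and bind DNA at short elements with an ACGTG or GCGTG core, and the genes beside these elements are transcribed. The products serve to live without oxygen: glucose is imported and turned to lactate, acid is exported, vessels are attracted and mitochondria are removed. CA9 encodes carbonic anhydrase IX, a membrane enzyme with its active site outside the cell that hydrates carbon dioxide and so regulates pH, and it is widely used as a tissue marker of hypoxia in tumours.

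The libraries held between 38957142 and 218518344 estimated counts, with a median of 5.13735e+07. The libraries labelled resistant HT-29 went against their label. Of 64 genes at 10 TPM or more in sensitive HCT-116 and at 0.1 TPM or less in the sensitive cells of both other lines, 62 were at 1 TPM or more in the uracil libraries labelled resistant HT-29, as were 62 in resistant HCT-116. Of 12 such genes of sensitive HT-29, 0 were. They are called the libraries labelled resistant HT-29 throughout, and no member was tested in a contrast with them. They entered the estimate of spread in the HT-29 fit, and the count of members called under 5-FU in sensitive HT-29 was 3 with and without them. The epithelial markers EPCAM, CDH1, KRT8, KRT18, KRT19, CDX2, VIL1 and CEACAM5 had 6 or 7 of 8 members at a mean of 1 TPM or more in each line, and in sensitive HT-29 the intestinal factor CDX2 was at 0.194 TPM. Of 8 markers of leukocytes, endothelium and fibroblasts, 1 to 3 reached 1 TPM. Their summed level ran from 1.54 to 33.1 TPM outside sensitive HT-29 and from 1423 to 1692 TPM in it, almost all of it LYZ at 1507 TPM under uracil, with CD3E, PTPRC and COL3A1 each at 0.101 TPM or less there.

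The stretches before the start sites show which members carry the core of the HIF-binding element close by. Of the 10 genes, 8 had promoters in the RefSeq table (GRCh38.p14), 10 promoters in all, and VEGFA and NDRG1 had no entry. In the 250 bases before the start, searched on both strands, the letters ACGTG stood in 5 of the 10 promoters, those of CA9, ANKRD37, BNIP3, LDHA and PDK1, against 18.5% of all 35116 promoters of that length. ACGTG or GCGTG stood in 7 of 10 against 43.2% of all. Overlapping matches were counted apart, so that CACGTG, which reads the same on both strands, counts as 2. Neither core stood in the window of EGLN3 or of SLC2A1. The stretches are given for 1 promoter of each gene with a match, leaving out the second start of LDHA, which holds a GCGTG, and run 5′ to 3′ on the strand of the gene, and capitals mark the ACGTG or GCGTG core on either strand.
CA9, chr9:35673895-35673924, plus strand: ctctcgtttccaatgCACGTacagcccgta
ANKRD37, chr4:185396661-185396720, plus strand: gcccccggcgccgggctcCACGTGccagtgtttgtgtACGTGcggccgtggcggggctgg
BNIP3, chr10:131982014-131982073, minus strand: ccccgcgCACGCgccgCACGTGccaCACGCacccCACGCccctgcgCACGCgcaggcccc
LDHA, chr11:18394363-18394502, plus strand: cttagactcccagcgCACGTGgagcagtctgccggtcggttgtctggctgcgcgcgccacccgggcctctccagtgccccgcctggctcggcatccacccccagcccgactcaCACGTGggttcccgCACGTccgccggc
PDK1, chr2:172556060-172556089, plus strand: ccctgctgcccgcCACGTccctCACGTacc
ADM, chr11:10304943-10305002, plus strand: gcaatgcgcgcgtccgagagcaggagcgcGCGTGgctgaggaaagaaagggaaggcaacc
A match is a description of these letters and not a measured binding site. The core of CA9 begins 18 bases before its start, and those of PDK1 begin 17 and 8 bases before its second start in the table. The first PDK1 start has neither core.

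5-FU changed few of the members beyond 2-fold in sensitive cells. In sensitive HT-29, CA9 and PDK1 fell and ADM rose, 3 of 10 members called beside 12.2% of 23756 genes tested. In sensitive DLD-1, EGLN3 fell and was the 1 member called of 9 tested, beside 4.02% of 21814 genes. In sensitive HCT-116, EGLN3 was again the 1 member called, of 10, and fell, beside 8.14% of 22975 genes. CA9 was too low to be tested in the DLD-1 libraries on their own. At the adjusted p alone, smaller changes passed in 9 of 10 members in HT-29 (47.0% of all genes), 7 of 9 in DLD-1 (34.7%) and 6 of 10 in HCT-116 (42.0%). In the tested resistant cells, edgeR called 0 of 9 members in DLD-1 (0.0138% of all genes) and 0 of 10 in HCT-116 (0.0% of all genes), and DESeq2 called 0 in both. At an unadjusted p under 0.05, 5 members in resistant DLD-1 and 1 in resistant HCT-116 passed.

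**Figure D1:**
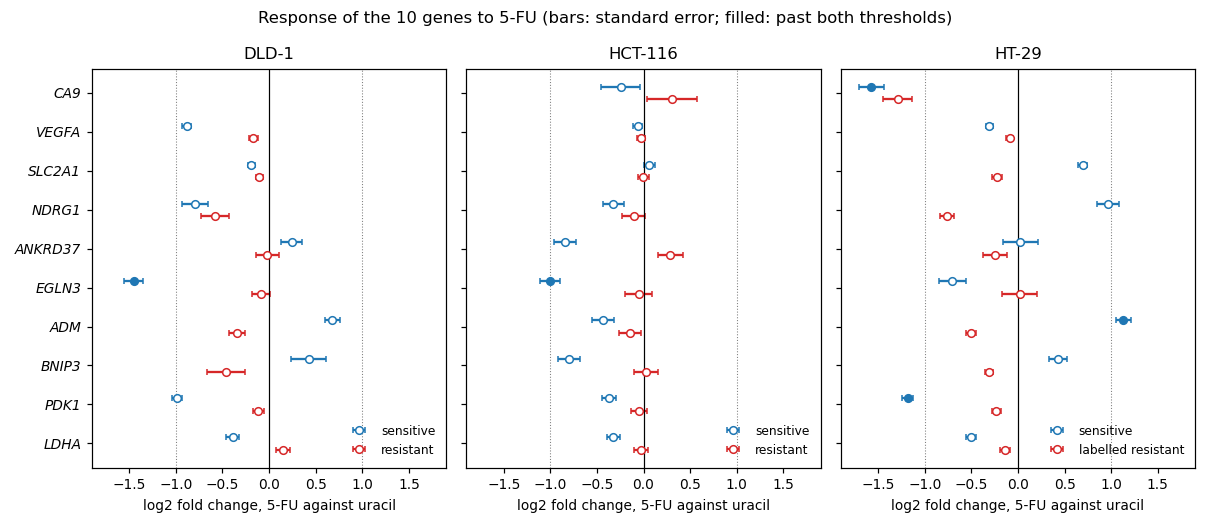
Log2 fold change of each member under 5-FU against uracil (horizontal axis; points, with bars of 1 standard error from the fit) in sensitive and resistant cells of each line, with filled points for calls; the libraries labelled resistant HT-29 are shown as a description, so their points are open by construction. CA9 lies at -1.57 in sensitive HT-29 and at -0.25 in sensitive HCT-116, and it has no points in DLD-1.

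CA9 (chr9:35673928-35681159, plus strand, GRCh38, overlapping ARHGEF39 on the other strand) was highest in sensitive HT-29 under uracil, where the 3 libraries were at 8.54, 8.53 and 8.49 TPM. Under 5-FU they were at 3.78, 3.86 and 3.96 TPM. The groups did not overlap, and each 5-FU library lay below the lowest uracil library by more than the whole spread of either group. The estimated counts were 604, 491 and 343 under uracil and 289, 229 and 215 under 5-FU, a log2 fold change of -1.57 ± 0.13 (SE) with an edgeR adjusted p of 1.37e-10. The rule that chose the genes used the libraries labelled resistant HT-29 and not these sensitive ones. The choice was made with earlier results of these data known. In sensitive HCT-116, CA9 was at 3.398, 1.950 and 2.295 TPM under uracil and at 1.81, 2.29 and 2.50 TPM under 5-FU. Those groups overlapped, and the log2 fold change of -0.25 ± 0.21 had an adjusted p of 0.347. The response of HT-29 minus that of HCT-116 was -1.29 ± 0.29 with an adjusted p of 0.000384 in a fit over the 27 sensitive libraries. This test between lines was added after the data were seen.

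In DLD-1, CA9 was close to absent. The sensitive uracil libraries were at 0.206, 0.0119 and 0.0840 TPM with 12.6, 3.04 and 5.25 estimated counts, and each of the 3 sensitive 5-FU libraries held 1 count. Resistant DLD-1 held between 0 and 6.28 counts in its 9 libraries. At counts this low no difference by treatment can be shown. Against DLD-1, CA9 under uracil was higher in sensitive HCT-116 by 5.35 ± 0.35 and in sensitive HT-29 by 7.10 ± 0.32 on the log2 scale, with adjusted p of 7.48e-15 and 4.50e-19. HT-29 exceeded HCT-116 by 1.75 ± 0.20 (adjusted p = 3.30e-09).

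The libraries labelled resistant HT-29 had CA9 at 2.95, 4.25 and 6.25 TPM under uracil, at 2.02, 2.09 and 2.07 TPM under 5-FU and at 2.32, 2.35 and 1.99 TPM under 5-FU with irradiation. All 6 treated libraries lay below the lowest uracil library, and the uracil libraries were the most spread of all the CA9 groups on this scale, with an SD of 1.66 TPM. The fitted log2 fold changes were -1.29 ± 0.16 for 5-FU and -0.92 ± 0.15 for 5-FU with irradiation, and it is the former contrast that chose the genes. It is set beside 0.00421% of 23756 genes that pass both thresholds there, 1 gene in all, from which nothing is read. In resistant HCT-116, whose line markers these libraries share, CA9 was at 0.821, 1.23 and 2.00 TPM under uracil and at 0.738, 1.40 and 2.17 TPM under 5-FU, and the groups overlapped throughout (log2 fold change 0.31 ± 0.27, adjusted p = 0.781).

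Placed in order by mean TPM, sensitive HT-29 under uracil stood alone at the top. Below it came sensitive HT-29 with 5-FU and irradiation (5.23 ± 0.49, SD, n = 3), the uracil libraries labelled resistant HT-29 (4.48 ± 1.66) and sensitive HT-29 with 5-FU (3.87 ± 0.0886), each overlapping its neighbour. The sensitive HCT-116 groups lay between 2.20 and 2.55 TPM, mixed with the treated libraries labelled resistant HT-29, and the resistant HCT-116 groups between 1.26 and 1.44 TPM. Neighbours within that stretch were not separated by the ranges of their libraries, and the stretch as a whole lay below sensitive HT-29 with 5-FU. The 6 DLD-1 groups were last, at 0.196 TPM or less and below all the rest.

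Only the transcript CA9-201 (ENST00000378357, 1546 bases) holds the coding sequence of CA9, and the other annotated transcripts of the gene are short and have no defined coding sequence. In sensitive HT-29 under uracil CA9-201 was at 7.65, 7.33 and 7.06 TPM, 86.4% ± 3.0 (SD, n = 3) of the TPM of the gene. Under 5-FU it was at 2.95, 2.20 and 2.83 TPM, 68.8% ± 10.8. Under 5-FU with irradiation it was at 2.88, 2.30 and 3.44 TPM, 56.0% ± 16.0. Taken from estimated counts in place of TPM, the share of CA9-201 was 98.3%, 89.3% and 87.4% in the same order. The rise in total CA9 TPM from 5-FU to 5-FU with irradiation in these cells was thus not seen in CA9-201, and on counts the difference was 0.11 ± 0.14 (adjusted p = 1). In resistant HCT-116 under uracil CA9-201 was at 0.431, 0.286 and 0.675 TPM, against 2.85, 1.92 and 2.29 TPM in sensitive HCT-116, without overlap. It took 36.5% of CA9 TPM there and 94.0% in sensitive HCT-116, and 69.4% and 99.2% of CA9 counts. The split between overlapping transcripts is an estimate from shared reads. Part of the CA9 signal was assigned to a transcript outside the annotation used here (GENCODE 44), and the matched part ran from 0% to 100% of the gene by library. The large unmatched parts were in DLD-1 libraries, where CA9 was near 0 TPM, and not in those of HT-29 or HCT-116. These looks at transcripts were added after the data were seen.

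**Figure D2:**
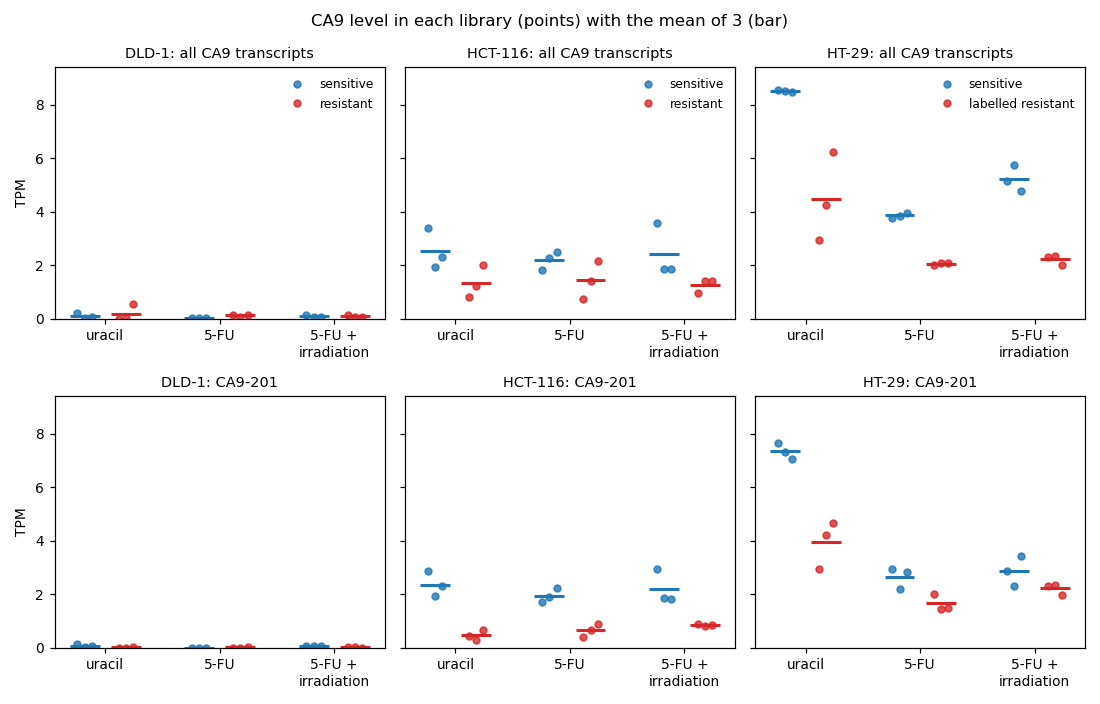
TPM of CA9 (vertical axis) in each library (points) with the mean of 3 (bars), by treatment, line and label (sensitive or resistant). The upper row sums all transcripts and the lower row shows CA9-201, which holds the coding sequence. In sensitive HT-29 CA9-201 has a mean of 7.34 TPM under uracil, 2.66 under 5-FU and 2.87 under 5-FU with irradiation, while every DLD-1 library is near 0.

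The next members serve glucose and lactate metabolism. SLC2A1 encodes GLUT1, the basal glucose importer. In sensitive HT-29 it was at 200.7, 203.9 and 185 TPM under uracil and at 365, 378 and 363 TPM under 5-FU, without overlap. Its log2 fold change of 0.69 ± 0.05 (adjusted p = 1.21e-12) stayed under the 2-fold threshold. In sensitive DLD-1 it was at 208, 206 and 215 TPM and then at 200.5, 189 and 191 TPM, a change of -0.19 ± 0.04 (adjusted p = 0.000235), and in sensitive HCT-116 the change of 0.06 ± 0.06 did not pass (adjusted p = 0.390). The response of HT-29 exceeded that of DLD-1 by 0.94 ± 0.08 (adjusted p = 7.78e-12) and that of HCT-116 by 0.67 ± 0.08 (adjusted p = 8.55e-09).

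PDK1, a kinase that shuts pyruvate out of the mitochondrial citric acid cycle by inhibiting pyruvate dehydrogenase, was lower under 5-FU in all 3 sensitive lines. In HT-29 it went from 10.8, 9.24 and 9.39 TPM to 5.72, 6.11 and 4.57 TPM and was called at -1.18 ± 0.06 (adjusted p = 1.09e-15). That call is on counts, and the mean TPM of PDK1 there fell by less than 2-fold. In DLD-1 it went from 15.0, 13.3 and 16.5 TPM to 8.42, 8.90 and 8.56 TPM, at -0.99 ± 0.06 (adjusted p = 1.58e-11), just inside the 2-fold bound. There it was called when the first or second uracil library or the second 5-FU library was left out (-1.007, -1.023 and -1.002). In HCT-116 the change was smaller, at -0.37 ± 0.07 (adjusted p = 0.000189), with HT-29 minus HCT-116 at -0.78 ± 0.10 and HCT-116 minus DLD-1 at 0.64 ± 0.09. In each of these lines the uracil and 5-FU libraries did not overlap.

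LDHA, the lactate dehydrogenase subunit that turns pyruvate to lactate, was the most abundant member in every condition. Its means were 1310 ± 45 TPM (SD, n = 3) under uracil and 1076 ± 8.94 TPM under 5-FU in sensitive DLD-1, 1975 ± 99.2 and 1561 ± 20.5 TPM in HCT-116 and 1056 ± 71.4 and 908 ± 48.2 TPM in HT-29. The log2 fold changes, -0.39 for DLD-1, -0.32 for HCT-116 and -0.50 for HT-29, all passed the adjusted p and not the fold threshold, and the differences between lines did not pass (adjusted p from 0.269 to 0.765).

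Of the secreted products, ADM encodes adrenomedullin, a peptide that widens vessels. Its response to 5-FU had opposite signs in the sensitive lines. In HT-29 it was at 4.04, 4.12 and 3.90 TPM under uracil and at 11.4, 10.2 and 10.2 TPM under 5-FU, and it was called at 1.13 ± 0.08 (adjusted p = 1.66e-12). In DLD-1 it was at 8.82, 9.57 and 11.2 TPM and then at 16.1, 16.9 and 16.3 TPM, with a change of 0.68 ± 0.08 (adjusted p = 3.92e-07). In HCT-116 it was at 70.3, 64.4 and 66.0 TPM and then at 48.2, 48.1 and 49.5 TPM, with a change of -0.43 ± 0.11 (adjusted p = 0.00281). No uracil library overlapped a 5-FU library in any of the 3 lines. HT-29 minus HCT-116 was 1.60 ± 0.18 (adjusted p = 3.68e-09) and HCT-116 minus DLD-1 was -1.09 ± 0.15 (adjusted p = 7.21e-07).

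VEGFA, the main growth factor of vessels, was lower under 5-FU in sensitive DLD-1, from 48.3, 52.2 and 49.7 TPM to 32.1, 32.5 and 31.5 TPM, with a log2 fold change of -0.88 ± 0.05 (adjusted p = 9.47e-12). In HCT-116 it was at 40.4 ± 3.21 and 39.4 ± 1.31 TPM, and the change of -0.06 ± 0.05 did not pass (adjusted p = 0.251). In HT-29 the change of -0.31 ± 0.04 on counts passed the adjusted p (1.02e-07), while the TPM overlapped, at 42.1 ± 2.05 and 42.0 ± 1.57. VEGFA was the least variable member over the series, with a ratio of 2.27 between its highest and lowest library.

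EGLN3 encodes PHD3, a prolyl hydroxylase that acts on the HIF alpha subunits and is itself induced by HIF. It was lower under 5-FU in all 3 sensitive lines. In DLD-1 it was at 12.2, 11.2 and 14.4 TPM under uracil and at 4.76, 4.22 and 5.55 TPM under 5-FU, and it was called at -1.45 ± 0.10 (adjusted p = 4.18e-10). In HCT-116 it was at 10.3, 7.89 and 9.65 TPM and then at 4.54, 4.71 and 5.32 TPM, and was called at -1.01 ± 0.11 (adjusted p = 4.97e-08). That call was lost to the fold threshold without the third uracil library (-0.95) or the third 5-FU library (-0.9969), with scaling by library size alone (-0.92) and in a fit of the compared groups only (-0.99). In HT-29 it was at 4.66, 4.68 and 4.67 TPM and then at 2.76, 3.24 and 4.15 TPM, at -0.70 ± 0.14 (adjusted p = 0.000140). HT-29 and DLD-1 differed by 0.81 ± 0.16 (adjusted p = 7.88e-05), and the other differences between lines did not pass.

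BNIP3 marks mitochondria for removal by autophagy, NDRG1 is a stress-responsive cytoplasmic protein and ANKRD37 is a small ankyrin repeat protein. All 3 were higher in sensitive HCT-116 than in the other sensitive lines. BNIP3 was at 79.1, 76.2 and 85.1 TPM in sensitive HCT-116 under uracil and near 1 TPM in sensitive DLD-1 and HT-29 (0.776 ± 0.124 and 0.989 ± 0.0612). HCT-116 exceeded DLD-1 by 6.20 ± 0.14 and HT-29 by 5.78 ± 0.15 on the log2 scale (adjusted p = 4.32e-27 and 5.58e-26). Under 5-FU it was lower in HCT-116, at 42.5, 45.4 and 45.1 TPM (-0.80 ± 0.12, adjusted p = 5.52e-06), and higher in HT-29, at 1.57, 1.45 and 1.66 TPM (0.43 ± 0.10, adjusted p = 0.000442). The difference of 1.27 ± 0.22 between these responses passed (adjusted p = 1.66e-05).

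NDRG1 was at 247, 205 and 222 TPM in sensitive HCT-116, at 10.8, 9.57 and 14.5 TPM in DLD-1 and at 3.33, 2.59 and 2.32 TPM in HT-29 under uracil, and the 3 lines did not overlap. HCT-116 exceeded DLD-1 by 4.44 ± 0.13, and HT-29 against HCT-116 was at -6.315 ± 0.155. Under 5-FU it went to 7.12, 6.86 and 7.83 TPM in DLD-1 (-0.80 ± 0.14, adjusted p = 8.42e-05) and to 6.57, 5.93 and 7.07 TPM in HT-29 (0.97 ± 0.12, adjusted p = 6.18e-08). With scaling by library size alone the change in HT-29 was 1.128 and was called. HT-29 minus DLD-1 was 1.82 ± 0.22 (adjusted p = 3.63e-08). In HCT-116 the change of -0.32 ± 0.11 did not pass (adjusted p = 0.0184).

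ANKRD37 was at 17.6, 17.8 and 19.0 TPM in sensitive HCT-116 and at 10.8, 9.29 and 10.2 TPM under 5-FU, a change of -0.84 ± 0.12 (adjusted p = 3.74e-06). In DLD-1 and HT-29 the changes of 0.24 ± 0.11 and 0.03 ± 0.19 did not pass (adjusted p = 0.0940 and 0.949). HCT-116 minus DLD-1 was -1.07 ± 0.18 (adjusted p = 1.12e-05). The 3 tests of a line's response against another's passed, at the adjusted p alone, in 6 of 10 members for HCT-116 minus DLD-1 (27% of 25337 genes), in 4 for HT-29 minus DLD-1 (29.0%) and in 8 for HT-29 minus HCT-116 (36.7%). Some of these lay close to the threshold. VEGFA for HT-29 minus HCT-116 did not pass with no filter on low counts (edgeR adjusted p = 0.0576). SLC2A1 for HCT-116 minus DLD-1 did not pass when certain single libraries were left out, such as the first 5-FU library of DLD-1 (edgeR adjusted p = 0.0219).

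Without 5-FU, the sensitive lines differed beyond 2-fold in more members than 5-FU moved that far. Under uracil 6 of 10 members were called between sensitive HCT-116 and DLD-1 (31.0% of 25337 genes), with CA9, NDRG1, ANKRD37, ADM and BNIP3 higher and SLC2A1 lower. Between HT-29 and DLD-1, 5 were called (31.7%), with CA9 higher and NDRG1, ANKRD37, EGLN3 and ADM lower. Between HT-29 and HCT-116, 6 were called (38.1%), with CA9 and SLC2A1 higher and NDRG1, ANKRD37, ADM and BNIP3 lower. At the adjusted p alone the counts were 10 (61.1% of genes), 6 (61.0%) and 10 (65.2%). CA9 had its highest level in HT-29, where NDRG1, ANKRD37, EGLN3 and ADM had their lowest. SLC2A1 was near 200 TPM in DLD-1 (209.7 ± 4.83) and HT-29 (196.6 ± 10.1), with a difference of 0.02 ± 0.05 on counts, and at 50.5 ± 2.92 TPM in HCT-116.

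**Figure D3:**
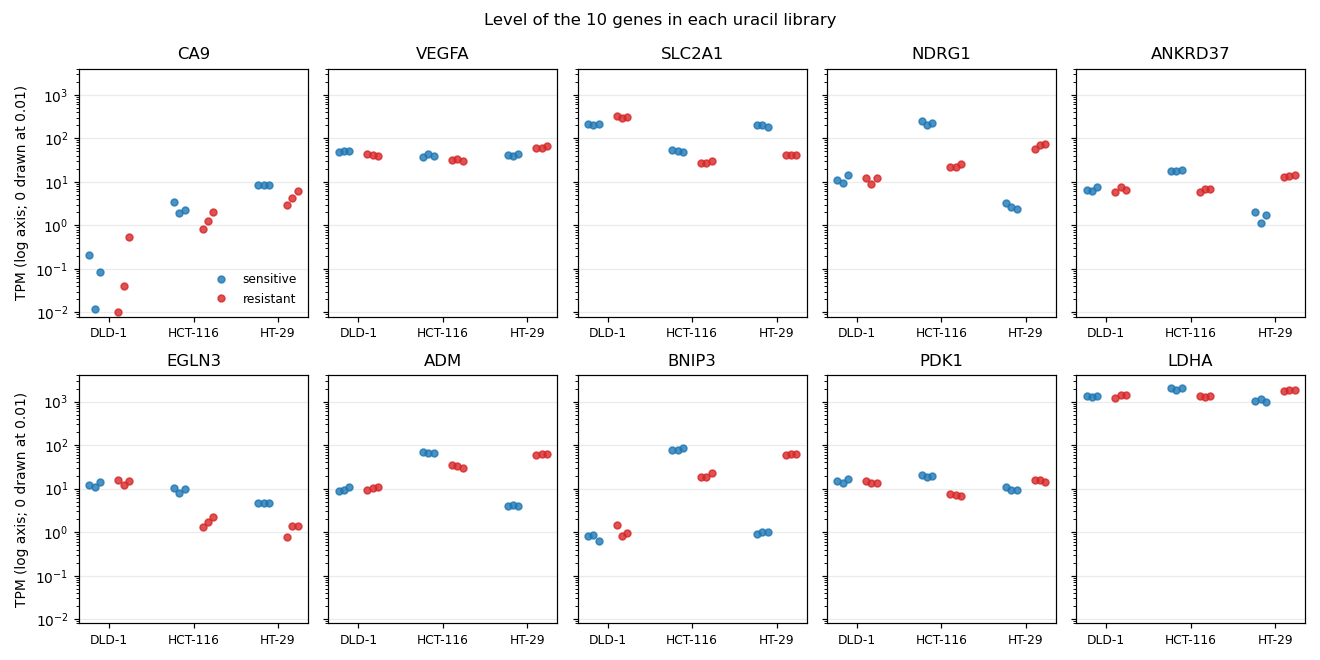
TPM of each member (vertical axis, log scale, with a value of 0 drawn at 0.01) in the 3 uracil libraries of the sensitive and of the resistant cells of each line, 1 panel per gene; red points over HT-29 are the libraries labelled resistant HT-29. BNIP3 lies near 1 TPM in DLD-1 and sensitive HT-29 and between 76.2 and 85.1 TPM in sensitive HCT-116, whereas VEGFA lies between 30.6 and 67.4 TPM.

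Resistant cells of HCT-116 had lower levels of all 10 members than sensitive cells under uracil at the adjusted p, and 7 of 10 were called, all 7 lower, beside 11% of 22975 genes called and 6.8% called lower. At the adjusted p alone 41.1% of genes passed. NDRG1 fell most, from 247, 205 and 222 TPM to 22.2, 22.1 and 25.5 TPM, with a log2 fold change of -3.28 ± 0.12 (adjusted p = 2.70e-15), a 9.72-fold difference. EGLN3 was at 1.30, 1.67 and 2.19 TPM in resistant cells, against 10.3, 7.89 and 9.65 TPM (-2.59 ± 0.12, adjusted p = 9.46e-14). BNIP3 was at 18.3, 18.6 and 22.9 TPM, against 79.1, 76.2 and 85.1 TPM (-1.996 ± 0.125, adjusted p = 1.11e-11). None of these resistant libraries reached the lowest sensitive library.

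CA9 fell by 1.88 ± 0.24 on the log2 scale of counts (adjusted p = 9.26e-07), with 37.7, 37.04 and 50.02 estimated counts in resistant and 179, 120 and 139 in sensitive HCT-116. On the TPM scale its libraries overlapped, at 0.821 to 2.00 against 1.950 to 3.398 TPM. In the resistant libraries CA9-201 took 36.5% of CA9 TPM and 69.4% of CA9 counts. PDK1 (-1.65 ± 0.08), ANKRD37 (-1.39 ± 0.13) and ADM (-1.08 ± 0.12) were also called lower. SLC2A1 at -0.92, LDHA at -0.60 and VEGFA at -0.36 passed the adjusted p alone. All 7 calls stood when any 1 library was left out and under DESeq2.

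In DLD-1 the same comparison called 0 of 9 members in edgeR, beside 5.7% of 21814 genes, and 0 in DESeq2, with 3 members at an unadjusted p under 0.05. At the adjusted p alone 2 passed, where 24.6% of genes did. SLC2A1 was at 326, 289.6 and 310.5 TPM in resistant against 208, 206 and 215 TPM in sensitive DLD-1, without overlap (0.50 ± 0.04, adjusted p = 9.10e-10). VEGFA was lower by a smaller margin, at 44.4, 40.5 and 40.1 against 48.3, 52.2 and 49.7 TPM (-0.29 ± 0.05, adjusted p = 6.18e-05). EGLN3 did not pass, at 14.4 ± 2.08 and 12.6 ± 1.65 TPM.

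**Figure D4:**
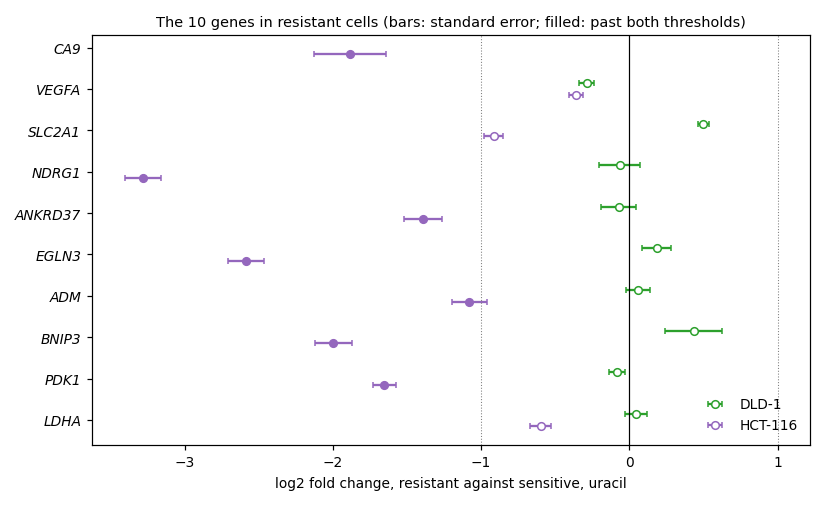
Log2 fold change of each member in resistant against sensitive cells under uracil (horizontal axis; points, with bars of 1 standard error from the fit) for DLD-1 and HCT-116, with filled points for calls. Every HCT-116 point lies left of 0, from -3.28 for NDRG1 to -0.36 for VEGFA, and the DLD-1 points lie between -0.29 and 0.50.

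The response to 5-FU was then compared between sensitive and resistant cells of a line. In DLD-1 the difference passed the adjusted p for 5 of 9 members, beside 22.8% of 21814 genes. The fall of EGLN3 in sensitive cells was not seen in resistant cells, which were at 15.7, 11.96 and 15.4 TPM under uracil and at 12.8, 14.4 and 12.995 TPM under 5-FU (difference 1.37 ± 0.14, adjusted p = 2.78e-07). PDK1 (0.87 ± 0.08), VEGFA (0.71 ± 0.07) and LDHA (0.54 ± 0.10) differed the same way. ADM differed the other way, at -1.02 ± 0.12 (adjusted p = 9.86e-07), and was at 9.42, 10.2 and 11.02 TPM under uracil and at 7.24, 8.20 and 7.73 TPM under 5-FU in resistant cells.

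In HCT-116 the difference passed for 3 of 10 members, the share found over all 22975 genes (29.7%), and the count was 6 without the filter on low counts and in a fit of the compared groups only. ANKRD37 differed by 1.13 ± 0.18 (adjusted p = 2.76e-05), with resistant cells at 5.89, 6.70 and 6.78 TPM under uracil and at 7.32, 7.80 and 9.54 TPM under 5-FU. EGLN3 differed by 0.95 ± 0.18 and BNIP3 by 0.83 ± 0.17. CA9 did not pass, at 0.56 ± 0.34 (adjusted p = 0.215).

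Irradiation on top of 5-FU moved no member beyond 2-fold in the cells tested, where few of all genes were called. Against 5-FU alone, edgeR and DESeq2 each called 0 of 9 members in sensitive DLD-1 (0.0% of all genes), 0 of 10 in sensitive HCT-116 (0.0%) and 0 of 10 in sensitive HT-29 (0.00842%), with 2, 1 and 0 members at an unadjusted p under 0.05. In resistant DLD-1 (0.142%) and resistant HCT-116 (0.0261%) both tools again called 0, with 6 and 2 members at an unadjusted p under 0.05. In resistant DLD-1, SLC2A1 passed the adjusted p alone, at 364, 379 and 380.05 TPM against 278, 264 and 274 TPM (0.39 ± 0.04, adjusted p = 3.67e-06), as did ADM (0.45 ± 0.09, adjusted p = 0.00224), beside 3.85% of genes. The first irradiated library of sensitive HCT-116 stood above the other two in CA9 (3.57 against 1.86 and 1.88 TPM), NDRG1 (271 against 181 and 192), ADM (69.4 against 43.1 and 45.1), BNIP3 (61.0 against 38.3 and 41.8) and LDHA (1819 against 1456 and 1460.5). The counts of members called were the same without it.

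For the libraries labelled resistant HT-29, the values of the other members under 5-FU are given as a description. Nothing is read from their smaller changes, since the fall of CA9 there chose the genes. NDRG1 was at 55.3, 70.5 and 72.8 TPM under uracil and at 44.4, 39.6 and 36.3 TPM under 5-FU (fitted log2 fold change -0.76 ± 0.08). ADM was at 59.4, 62.6 and 63.0 TPM and then at 46.6, 43.1 and 46.2 TPM (-0.50 ± 0.05). The remaining 7 members had fitted changes between -0.31 for BNIP3 and 0.02 for EGLN3. Over the 10 members, 8 had 5-FU libraries that all lay below their uracil libraries, beside 4.45% of 17043 genes, and nothing is read from that count. Under uracil these libraries had BNIP3 at 59.4, 61.4 and 63.2 TPM, where sensitive HT-29 was at 0.921, 1.04 and 1.01 TPM and resistant HCT-116 at 18.3, 18.6 and 22.9 TPM.

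Calls among genes of the HIF pathway itself were set beside the shares over all genes. Among 16 of them (subunits, hydroxylases, VHL and partners), 0 were called under 5-FU in sensitive DLD-1 and in sensitive HCT-116, and 1 was called in sensitive HT-29, EPAS1, which encodes HIF-2 alpha and rose by 1.28 on the log2 scale (adjusted p = 7.29e-16), beside 4.02%, 8.14% and 12.2% of all genes in the same order. At the adjusted p alone edgeR passed 6 of 16 in HT-29 (47.0% of all genes), 11 in HCT-116 (42.0%) and 9 in DLD-1 (34.7%). Their median log2 fold changes were 0.03 in HT-29, -0.02 in HCT-116 and 0.02 in DLD-1, beside 0.03, 0.03 and 0.01 over all genes. In resistant against sensitive HCT-116, 1 was called, ARNT2, a partner subunit, which fell by 2.80 (adjusted p = 9.46e-16), beside 11% of all genes. In DLD-1 0 were called, with 6 at the adjusted p alone, beside 5.7% and 24.6% of all genes.

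Of 30 other genes known to be hypoxia-induced, 27 to 29 were tested in each line. Under 5-FU, 1 was called higher and 2 lower of 27 in sensitive DLD-1, 1 higher and 2 lower of 29 in HCT-116, and 7 higher and 2 lower of 29 in HT-29. The shares of all genes called in either direction were 4.02%, 8.14% and 12.2%. DDIT4, a stress-induced inhibitor of mTOR signalling, fell in DLD-1 (-4.06) and in HT-29 (-1.63). ANGPTL4, a secreted inhibitor of lipoprotein lipase, rose in DLD-1 (1.44) and in HT-29 (2.38), and the chemokine receptor CXCR4 fell in HT-29 (-2.29). PPFIA4 rose in HT-29 (1.56) and fell in HCT-116 (-1.29). VLDLR, a lipoprotein receptor, fell in DLD-1 (-1.915), and in HCT-116 the collagen cross-linking enzyme LOX rose (1.42) and ZNF395 fell (-1.09). In resistant against sensitive HCT-116, 11 of 29 were called lower and 0 higher (6.8% of all genes called lower), with a median of -0.81 beside 0.00 over all genes to 2 decimals, among them the mitophagy receptor BNIP3L (-2.10), DDIT4 (-1.56) and the collagen hydroxylase P4HA1 (-1.54). CXCR4, called there too, had 77 to 105 estimated counts in sensitive and 0 to 3 in resistant libraries. In DLD-1 the same comparison called PPFIA4 higher (2.04) and TMEM45B (-2.50) and LOX (-1.035) lower, beside 5.7% of all genes called.

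Of 22 genes of glycolysis and its control, edgeR called 0 under 5-FU in sensitive DLD-1 and 0 in sensitive HCT-116, where 13 and 15 were lower at the adjusted p alone and 2 were higher in each. Beside these stand 34.7% and 42.0% of all genes that passed the adjusted p in either direction. In HT-29 it called 2 of 22 (12.2% of all genes), both higher: the enolase ENO2 (2.13) and the lactate exporter SLC16A3 (1.58). In resistant against sensitive HCT-116, 6 of 22 were called lower and 0 higher (6.8% of all genes called lower), with PDK3 (-1.54), PFKFB4 (-1.48), HK2 (-1.31) and HK1 (-1.29) the largest. In DLD-1 the 1 call was ENO2, higher (1.14), beside 5.7% of all genes called. Among 15 carbonic anhydrases and pH regulators, of which 7 were tested in DLD-1 and 11 in each other line, 1 was called under 5-FU in HCT-116 and 1 in HT-29, beside 8.14% and 12.2% of all genes. The cytosolic CA2 fell under 5-FU in HCT-116 (-1.20) and rose in HT-29 (1.47). CA12, a membrane carbonic anhydrase like CA9, fell in resistant against sensitive HCT-116 (-1.03), as did CA8 (-2.19), and under uracil both HT-29 (3.66) and HCT-116 (1.96) exceeded DLD-1 in CA12. Of 7 receptors of VEGFA and ADM, 3 to 5 were tested and 1 was called under 5-FU in each line, where 12.2% (HT-29), 8.14% (HCT-116) and 4.02% (DLD-1) of all genes were: NRP1 rose in HCT-116 (1.81), NRP2 in HT-29 (2.925) and FLT1 in DLD-1 (1.29) under 5-FU. In resistant against sensitive cells NRP2 was lower in DLD-1 (-1.998), and KDR (-1.84), CALCRL (-1.31) and NRP1 (-1.16) were lower in HCT-116. Of the epithelial markers, CDH1 fell in resistant against sensitive HCT-116 (-1.946).

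Markers of other cell types also moved in some of these comparisons. Under 5-FU in sensitive HT-29, 3 of 7 tested were called higher, beside 12.2% of all genes called: PECAM1 from 0.332 to 3.84 TPM, COL1A1 from 0.713 to 1.499 TPM and VWF, with 0 to 4 estimated counts under uracil and 31 to 39 under 5-FU, while the epithelial marker CEACAM5 rose (1.52). Under 5-FU in sensitive DLD-1, PDGFRB (-1.86) and the epithelial VIL1 (-1.44) fell, and in HCT-116 none of 6 was called, with 1 at the adjusted p alone. Of all genes, 4.02% were called in DLD-1 and 8.14% in HCT-116, where 42.0% passed the adjusted p alone. In resistant against sensitive HCT-116, PTPRC rose, with 0 to 3.03 estimated counts in sensitive and 9.62 to 14.6 in resistant libraries, and COL1A1 (-1.10, from 21.3 to 11.7 TPM) and PDGFRB (-1.23) fell. In resistant against sensitive DLD-1, PDGFRB rose (1.31). Beside these calls stand 11% of all genes called between resistant and sensitive cells in HCT-116 and 5.7% in DLD-1. The part of these markers in the results was not tested.

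Transcript use differed between lines in BNIP3, in a look added after the data were seen. There BNIP3-201 (1542 bases) took 68.9% ± 2.7 of TPM in sensitive HCT-116 under uracil, and BNIP3-202 (3066 bases, with a coding sequence of 540 bases) took 3.85% ± 0.70. In sensitive DLD-1 the shares were 22.9% ± 7.9 and 67.8% ± 6.8, and in sensitive HT-29 22.7% ± 8.3 and 71.9% ± 8.9, at gene levels near 1 TPM. The uracil libraries labelled resistant HT-29 had 71.3% ± 1.2 and 4.00% ± 0.55. In VEGFA, transcripts with a retained intron took 32.2% ± 1.5 of TPM under uracil and 36.6% ± 1.6 under 5-FU in sensitive DLD-1. HCT-116 was at 30.0% ± 3.7 and then 39.6% ± 0.64, and HT-29 at 30.7% ± 3.2 and then 38.9% ± 4.7. Those ranges did not overlap in any of the 3 lines. Taken from counts in place of TPM, the share went from 29.0% to 35.8% in HCT-116. In HT-29 it went from 35.2% to 38.4%. In DLD-1 it went from 36.1% to 36.2%, so the difference in DLD-1 was not seen on that scale.

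The genes most like CA9 over the 18 condition means of log2(TPM + 1) were ZMAT2 (Pearson r = 0.980), FAM49B (0.967), CTU1 (0.967), USH1C (0.960) and LINC00992 (0.959), among 21996 genes that reached 1 TPM in a condition. None is a member, and among the members the closest were BNIP3 (0.394) and VEGFA (0.333), while EGLN3 was at -0.535. LINC00992 was at 11.8 ± 0.748 TPM in sensitive HT-29 under uracil and at 5.22 ± 1.56 TPM under 5-FU. These values follow the order of the lines. With the mean of each line and sensitivity taken off, which leaves the treatment, PDK1 (0.550) and LDHA (0.547) were closest to CA9 among the members, and SLC2A1 (-0.509) and ADM (-0.376) were farthest. Both measures include the libraries labelled resistant HT-29, whose fall of CA9 chose the genes, so they are a description. The 5 genes most like CA9 on that measure were AC018521.6 (0.899), AP003721.3 (0.870) and the small RNA genes MIR4525 (0.965), RNU6-155P (0.946) and MIR181A2 (0.828), each of the latter at 0 TPM in 14 or more of 18 condition means. Where the small RNA genes were above 0 TPM, 1 library of the condition held all of the signal. In sensitive HT-29 under uracil, MIR4525 was thus at 1.85 ± 3.21 TPM. Nothing is read from their likeness to CA9.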

How the data were processed

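Poly(A) RNA was sequenced as directional paired-end libraries. Per the paper's methods and the submitters' processing notes, the authors trimmed reads with Trimmomatic 0.36, checked them with FastQC 0.11.8 and quantified them with kallisto 0.44.0 on Ensembl 98 transcripts of GRCh38.p13. The authors deposited estimated counts and TPM per gene and per transcript; estimated counts split reads among transcripts that share sequence, and TPM also correct for effective length. Here estimated counts were rounded and tested with edgeR 4.0.16 (R 4.3.3, quasi-likelihood test, TMM scaling, its filter on low counts) across all genes, in 1 fit per line over 18 libraries and 1 over the 27 sensitive libraries, with Benjamini-Hochberg adjustment. DESeq2 1.42.0 was an alternative. The tests were checked on simulated counts. Tables and plots used Python 3.11.15 (numpy 2.4.6, pandas 2.3.3, matplotlib 3.10.9).

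The members and gene lists were chosen with earlier results of these data known. All 10 members entered the counts of each comparison where they could be tested, and not every member's value is given. Of every other list, at most the 4 called genes with the largest change per comparison were to be named. So were the 5 genes most like CA9 by Pearson r over condition means, with and without the means of each line and sensitivity taken off. A result among the other hypoxia-induced genes is not reported here. Other genes named were chosen after their values were seen. Tests of one line's response against another's and fits of the libraries labelled resistant HT-29 other than 5-FU were added after the data were seen. Across 54 replicate pairs none agreed within sampling noise, and none was merged.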

Additional observations from a re-analysis of the deposited data

Results flagged for a closer look

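The results below were singled out because the response to 5-FU differed between groups of cells, each by a test of the difference itself in edgeR at an adjusted p of at most 0.01, and by at least 1 on the log2 scale. No explanation was weighed, and the comparisons between lines share their control libraries.

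Between resistant and sensitive cells of a line, EGLN3 in DLD-1 had a difference of 1.368 (sensitive -1.45, resistant -0.09). ADM in DLD-1 had a difference of -1.021 (sensitive 0.68, resistant -0.34). ANKRD37 in HCT-116 had a difference of 1.128 (sensitive -0.84, resistant 0.28).

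Between sensitive HCT-116 and sensitive DLD-1, the difference was -1.067 for ANKRD37, -1.093 for ADM and -1.172 for BNIP3. Between sensitive HT-29 and sensitive DLD-1 it was 1.816 for NDRG1. Between sensitive HT-29 and sensitive HCT-116 it was -1.287 for CA9, 1.331 for NDRG1, 1.604 for ADM and 1.267 for BNIP3. CA9 was the 1 member of these 4 with a lower response in HT-29.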

How the results depend on the processing

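Of the 88 member values at an adjusted p of at most 0.01, all 88 kept direction and side under DESeq2 and with the replicate block, and none reversed under any alternative. Of the 106 member values above that adjusted p, 45 changed sign under an alternative and 8 were called under an alternative. DESeq2 called 6 members in place of 5 for the differing responses in DLD-1. Replicate numbers did not pair the samples, since in 0 of 45 pairs of groups were all same-number correlations of deviations over 0.1. With the replicate block the count for HCT-116 minus DLD-1 was 7 in place of 6. At the adjusted p alone, counts under 5-FU were 9 in sensitive HT-29, 6 in HCT-116 and 7 in DLD-1, 2 for irradiation in resistant DLD-1 and for resistant against sensitive DLD-1, and 10 for HCT-116 against DLD-1 and for HT-29 against HCT-116. The 5-FU count in sensitive HCT-116 was 0 with scaling by library size alone and in a fit of the compared groups only, and the count of differing responses in HCT-116 was 6 with no filter and in a fit of the compared groups only. With scaling by library size alone NDRG1 joined the calls under 5-FU in sensitive HT-29, at 1.128. Scaling by library size alone shifted the whole gene set upward under 5-FU, to a median of 0.19 on the log2 scale for HT-29, 0.11 for HCT-116 and 0.12 for DLD-1. The share of calls that were higher went from 72.8% to 84.9%, 58.8% to 68.3% and 66.1% to 78.1% in that order, and for the difference between resistant and sensitive responses from 61.6% to 51.5% (HCT-116) and from 60.02% to 39.2% (DLD-1). Leaving out 1 library gave 0 to 1 members under 5-FU in HCT-116, 1 to 2 in DLD-1 and 3 to 4 in HT-29, where NDRG1 joined without the second uracil or the first or second 5-FU library. It gave 5 to 6 for the differing responses in DLD-1, 6 to 7 for HT-29 against HCT-116, 5 to 7 for the response of HCT-116 minus DLD-1 and 7 to 8 for HT-29 minus HCT-116, and changed no other count. With a pseudocount of 0.1 TPM, 1 of the 5 genes most like CA9 was shared, and with no filter on TPM 2 of 5 were for the measure with line means taken off. With the deepest library thinned all 40 values it enters were the same in direction and side. CA9 in sensitive DLD-1 had at most 12.6 counts, and its deepest library held 3.04, so no difference by treatment could be shown there.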
